A study of Mus musculus with 137 samples.

Results

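The genes described here encode factors of RNA polymerase I and proteins of the nucleolus: Taf1d, Polr1a, Polr1b, Nop56, Nop58, Fbl, Dkc1, Ncl, Npm1, and Nolc1. They are 10 of the 21450 genes measured, and their probes are 25 of the 30146 on the assay. The members were chosen by gene name with results of these libraries already known. Which measured values led to the choice is not given in the sources used here, and since the list carries the name of Taf1d, the exposure values of that gene are given as a description without a test. For the other 9 genes the result of a fit across all probes is given beside the share of all probes that passed, and it is not independent of that choice. Where a gene had several probes, the one with the highest total count was used.

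RNA polymerase I transcribes the precursor of ribosomal RNA in the nucleolus. The precursor is then modified and cut with the help of small nucleolar RNAs (snoRNAs), most of which are processed from introns of other genes, and assembled with ribosomal proteins. In the small intestine, cells divide in the crypts and differentiate as they move onto the villi, and dividing cells make ribosomes at a high rate.

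RNA came from the duodenum of female B6C3F1 mice that drank tap water with Cr(VI), given as sodium dichromate dihydrate, at 0 (untreated), 0.1, 1.4, 5, 20, 60, or 180 ppm for 7 or 90 days (days 8 and 91). The age of the mice is not given in the sources used here. The crypt or the villus region of formalin-fixed, paraffin-embedded sections was kept by microdissection, so a library holds all cell types of that region, and fewer cells of a type cannot be told apart from less RNA per cell. The 71 mice gave 71 crypt and 66 villus libraries, with 4 to 6 libraries in each of the 28 groups of compartment, day, and concentration, and 66 mice gave both compartments. TempO-Seq counts a read for each pair of detector oligonucleotides ligated on a transcript, so counts do not depend on transcript length but do depend on the probe, and levels are compared here within a probe only.

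Total counts ran from 1463938 to 7199801 per library, and 26365 probes were tested, all 25 member probes among them. Levels are CPM, read counts scaled to the effective library size. Log2 differences and their standard errors (SE) are from edgeR's quasi-likelihood fit of all 28 groups, and a gene is said to have passed when the adjusted p was under 0.1. The median log2 difference of all probes from untreated libraries in the villus at day 91 was 0.43 for 5 ppm, 0.33 for 20 ppm, 0.23 for 60 ppm, and 0.11 for 180 ppm, and the values of that series are to be read against it. The untreated villi of day 91 were also the shallowest group, with 1667014 to 2678299 counts.

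In the untreated libraries of day 8, 2 went against their labels in compartment markers. The crypt library of mouse 49 had a summed level of 13 enterocyte genes of 73020 CPM against 26700 to 41250 CPM in the other crypt libraries, and 8 crypt stem cell genes summed to 272 CPM against 520 to 1021 CPM. The villus library of mouse 48 had an enterocyte sum of 43890 CPM against 72520 to 93140 CPM, and a stem cell sum of 815 CPM against 203 to 341 CPM. At 180 ppm and day 8, the villus library of mouse 526 was the lowest of the exposed villi in Taf1d, Polr1a, Nop56, Fbl, Dkc1, Ncl, and Npm1. In 2 of them, Ncl and Npm1, it was far from the rest by Dixon's criterion. The day 8 differences, member counts, and list counts at 180 ppm below are given with and without the 2 untreated libraries, and the members' exposure counts also without mouse 526, while the group levels, the lower concentrations one by one, and the correlations include all libraries. In the untreated sets of day 91 the markers followed the labels by group: 5 of 8 stem cell, 10 of 14 proliferation, and 6 of 7 Paneth cell genes were higher in the crypt and 7 of 13 enterocyte genes were lower. The highest villus sums of stem cell and proliferation genes came near the lowest crypt sums without overlap. Stem cell sums were 74.7 to 503 CPM in villi (median 189) and 656 to 1003 CPM in crypts. Proliferation sums were 198 to 600 CPM in villi (median 221) and 728 to 1306 CPM in crypts.

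Of the 10 members, 5 hold snoRNA genes on the same strand in GENCODE M21 (GRCm38). These sequences are shown because some members that make snoRNA-protein particles, Nop56, Nop58, and Dkc1, also carry snoRNAs in their own transcripts. Taf1d, at chr9:15306214-15316991 on the plus strand, holds 8, Nop56 holds 5, Nop58 holds 4, Ncl holds 3, and Dkc1 holds 1. Polr1a, Polr1b, Fbl, Npm1, and Nolc1 hold none. Of the 21, 1 in Nop56 overlaps an exon of a coding transcript of its host gene, and the others overlap none. Among the genes tested only Gas5, with 10, holds more than Taf1d, and Tex14 holds the same number.

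The snoRNAs fall into a class that binds the Nop56, Nop58, and fibrillarin proteins and guides methylation (box C/D) and a class that binds dyskerin and guides pseudouridylation (box H/ACA). A box C/D RNA was recognised here by TGATGA starting within 12 bases of the 5′ end and CTGA ending within 10 bases of the 3′ end, and a box H/ACA RNA by ACA 3 bases before the 3′ end. These letters were found in 7 and 6 of the 21, and in 19.6% and 19.1% of all 1558 annotated snoRNA and small Cajal body RNA genes. Other members of both classes carry boxes with other letters, and no match says only that these letters are not there. In the sequences below, from GENCODE, 5′ to 3′ on the strand of the gene, capitals mark the boxes. From Taf1d they are Gm24299 (chr9:15314074-15314144), Gm24357 (chr9:15315522-15315595), and Gm22620 (chr9:15315189-15315321). The others are Snord110 in Nop56 (chr2:130275506-130275573), Snord11 in Nop58 (chr1:59704790-59704873), and Snora75 in Ncl (chr1:86351169-86351301, minus strand).
Gm24299 (box C/D, Taf1d): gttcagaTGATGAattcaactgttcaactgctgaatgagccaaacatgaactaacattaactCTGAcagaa
Gm24357 (box C/D, Taf1d): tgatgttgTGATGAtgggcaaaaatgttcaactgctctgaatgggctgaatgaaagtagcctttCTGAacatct
Gm22620 (box H/ACA, Taf1d): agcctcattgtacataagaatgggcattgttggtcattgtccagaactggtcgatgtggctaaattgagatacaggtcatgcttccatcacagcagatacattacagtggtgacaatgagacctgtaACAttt
Snord110 (box C/D, Nop56): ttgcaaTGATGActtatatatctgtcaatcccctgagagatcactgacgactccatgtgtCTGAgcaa
Snord11 (box C/D, Nop58): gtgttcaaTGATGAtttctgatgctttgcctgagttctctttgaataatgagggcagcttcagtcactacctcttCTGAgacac
Snora75 (box H/ACA, Ncl): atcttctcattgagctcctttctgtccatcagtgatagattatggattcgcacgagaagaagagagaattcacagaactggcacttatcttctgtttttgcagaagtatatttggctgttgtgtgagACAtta
The level of the snoRNAs themselves was not analysed here. The probes measure the host transcripts.

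Taf1d encodes a TATA-box-binding-protein-associated subunit of SL1, the factor that places RNA polymerase I on the ribosomal RNA gene promoter. Its level in the villus at day 91 was 74.2 ± 43.2 CPM in untreated mice (SD, n = 4) and 109 ± 31.5 CPM with 0.1 ppm, 122 ± 39.9 CPM with 1.4 ppm, 161 ± 18.3 CPM with 5 ppm, 393 ± 81.1 CPM with 20 ppm, 420 ± 88.5 CPM with 60 ppm, and 491 ± 122 CPM with 180 ppm (n = 5 each). The 4 untreated libraries stood at 27.96, 48.4, 100.8, and 119.7 CPM and the 5 at 180 ppm at 318, 422, 515.5, 586, and 613 CPM. Every library at 20, 60, and 180 ppm lay above every library at the lower concentrations, where the highest was 191.5 CPM, while the libraries of these 3 concentrations overlapped one another. The libraries at 5 ppm, 148 to 191.5 CPM, also lay above all untreated ones, and those at 0.1 and 1.4 ppm overlapped them. The log2 difference from untreated villi was 0.53, 0.69, 1.09, 2.38, 2.48, and 2.70 (SE 0.28) in order from 0.1 to 180 ppm.

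**Figure D1:**
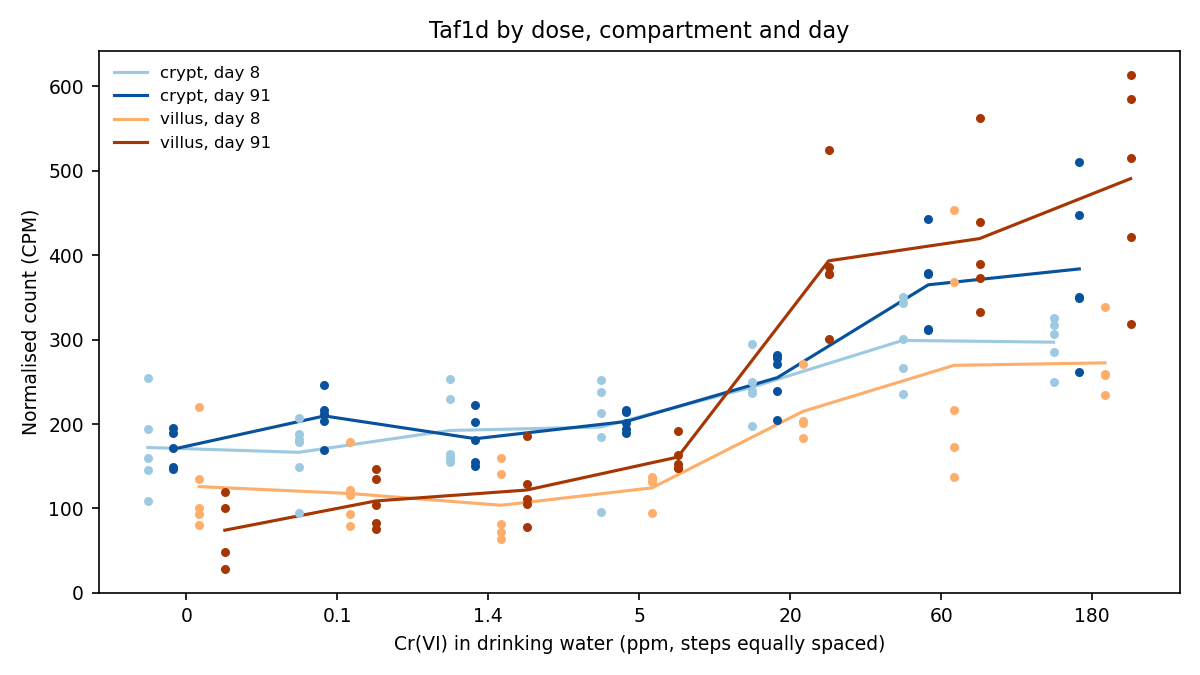
Level of Taf1d (CPM) in each library against concentration (ppm, equally spaced steps); points are libraries, lines join the group means, and colours give compartment and day. The day 91 villi run from a mean of 74.2 CPM untreated to 393 CPM at 20 ppm and 491 CPM at 180 ppm, the lowest and the highest of the 28 group means.

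In the other 3 sets the level of Taf1d was also higher at the upper concentrations, over a smaller range. The crypt at day 91 had 170 ± 22.6 CPM untreated and 384 ± 96.8 CPM at 180 ppm (n = 5 each), with a log2 difference of 1.17 (SE 0.24), and all 5 exposed libraries (261 to 510.1 CPM) lay above all untreated ones (146 to 195.5 CPM). The villus at day 8 had 126 ± 56.8 CPM (n = 5) and 272.5 ± 45.4 CPM (n = 4), a log2 difference of 1.11 (SE 0.26), and the groups did not overlap. The highest untreated villus of day 8, at 220.7 CPM, was that of mouse 48, and without it and the crypt of mouse 49 the difference was 1.41 (SE 0.27). The crypt at day 8 had 172 ± 55.2 CPM and 297 ± 30.5 CPM, a log2 difference of 0.79 (SE 0.24) that was 0.71 (SE 0.25) without these libraries. There the groups overlapped, since the lowest exposed library had 249.5 CPM and the highest untreated one 254 CPM.

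Taf1d was measured by 3 probes. The second, probe 69509, gave log2 differences in the villus at day 91 of 0.62, 0.87, 1.84, 3.30, 3.02, and 3.08 from 0.1 to 180 ppm, with 45.4 ± 28.6 CPM in untreated mice (n = 4) and 394 ± 139 CPM at 180 ppm (n = 5). At 180 ppm this probe gave 1.75 in the crypt at day 91, 0.95 in the villus at day 8, and 0.82 in the crypt at day 8. The third, probe 78295, was near its detection limit, with 2665 counts over all libraries against 118920 for the probe used, and its log2 difference at 180 ppm was 1.34 (SE 0.79) in the villus at day 91 and 0.32 (SE 0.70) in the crypt.

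The place of Taf1d between the compartments also differed with exposure. In untreated mice at day 91 the crypt had the higher level, 170 against 74.2 CPM, with a log2 difference (crypt minus villus) of 1.18 (SE 0.27). At 180 ppm the crypt had 384 CPM and the villus 491 CPM, a log2 difference of −0.35 (SE 0.24). The effect of 180 ppm was 1.53 (SE 0.36) log2 units larger in the villus than in the crypt at day 91 and 0.32 (SE 0.35) larger at day 8, or 0.71 (SE 0.36) at day 8 without the villus of mouse 48 and the crypt of mouse 49. In the villus it was 1.59 (SE 0.38) larger at day 91 than at day 8, and 1.23 (SE 0.37) without these libraries. The all-probe medians of these 3 contrasts were 0.22, −0.04, and 0.43.

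Most of the remaining members were higher at the upper concentrations in both compartments at day 91. The group means of all 9 were higher in the crypt than in the villus at every concentration and day. At 1.4 ppm and day 91 the log2 difference was above 0 for 2 of 9 in the crypt (median −0.07) and 1 of 9 in the villus (−0.26). At 0.1 ppm and day 91 it was above 0 for 7 in the crypt (median 0.11) and 4 in the villus (−0.32). None passed at these concentrations. The median log2 difference of the 9 genes at 180 ppm was 1.14 in the crypt and 1.28 in the villus at day 91, and 0.94 and 0.72 at day 8, beside all-probe medians of 0.00, 0.11, −0.04, and −0.10. Without the crypt of mouse 49 and the villus of mouse 48 the day 8 medians were 0.80 and 1.16. In the edgeR fit no member passed in the lower direction at any concentration in any set, where 0.783%, 1.26%, 1.64%, and 3.01% of all tests did in the crypt at day 8 and day 91 and the villus at day 8 and day 91. Lower calls were made by alternatives in villi only: Polr1b at day 8 with DESeq2 (60 and 180 ppm) and the estimateDisp dispersion (60 ppm), Fbl at day 8 and 1.4 ppm with a mean count of at least 10 or thinned counts, and Nolc1 at day 91 and 0.1 ppm with DESeq2, and leaving out replicate 2 or 5 also called Fbl lower at 1.4 ppm.

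For the crypt at day 91, 12 of 54 tests (9 genes at 6 concentrations) passed, all higher, where 2.33% of all tests of that set passed in that direction. At 180 ppm 6 of 9 passed, Nop56, Nop58, Fbl, Dkc1, Ncl, and Npm1, beside 3.8% of all probes. At 60 ppm 6 of 9 passed beside 9.78%, with Polr1a in place of Ncl, and none passed at 20 ppm or below. The count at 60 ppm was 3 of 9 with DESeq2 or the estimateDisp dispersion (Nop58, Fbl, and Npm1) and with thinned counts (Polr1a, Fbl, and Npm1). The groups at 0 and 180 ppm did not overlap for 5 of the 9, as for 3.76% of all probes. For the villus at day 91, 13 of 54 tests passed, all higher, beside 6.15%: 1 of 9 with 5 ppm beside 7.57%, 3 with 20 ppm beside 10.2%, 4 with 60 ppm beside 10.2%, and 5 with 180 ppm beside 8.9%. The groups at 0 and 180 ppm did not overlap for 4 of the 9, as for 5.7% of all probes. At day 8 they did not overlap for 5 of the 9 in the crypt (1.12% of all probes) and for 0 of the 9 in the villus (1.6%), and without the 2 untreated libraries for 5 (1.23%) and 2 (2.88%). The share at 5 ppm was near that of all probes. The members, taken by their highest-count probes, were not matched to the other probes for level, and all probes include weak ones. Among 15114 probes with a mean count of at least 10, 1243 were higher in the crypt and 2425 in the villus at day 91 and 180 ppm. Among all 26365 probes these numbers were 1002 and 2346.

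At day 8 the counts turned on which libraries were included. In the crypt 6 of 54 tests passed, beside 0.308% of all tests, 1 of them at 60 ppm (Ncl, beside 0.755%) and 5 at 180 ppm (Nop58, Fbl, Ncl, Npm1, and Nolc1, beside 1.05%). Without the crypt of mouse 49 and the villus of mouse 48 no test passed, with log2 differences at 180 ppm of 0.94 for Ncl (adjusted p = 0.107, edgeR), 0.98 for Npm1 (adjusted p = 0.122), and 0.80 for Nop58 (adjusted p = 0.125). In the villus 1 of 54 passed, Ncl at 180 ppm, beside 1.2%, and without these libraries 5 passed, Nop56, Nop58, Fbl, Ncl, and Npm1, all at 180 ppm. Without both libraries of mouse 526, the villus count was 3 (Fbl, Ncl, and Npm1) and the crypt count 5.

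Across the 7 concentrations, taken as equal steps, more members passed. The trend passed in 8 of 9 genes in the crypt at day 8 (beside 3.69% of all probes higher), 7 of 9 in the crypt at day 91 (10.7%), 4 of 9 in the villus at day 8 (5.86%), and 8 of 9 in the villus at day 91 (17.0%), always higher in edgeR, while DESeq2 called 1 member lower in the villus at day 8. Without the crypt of mouse 49 and the villus of mouse 48 these counts were 6, 7, 5, and 7. The slopes in the villus at day 91 ran from 0.18 log2 units per step for Nolc1 to 0.34 for Fbl among those that passed, and the slope of Taf1d was 0.49.

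**Figure D2:**
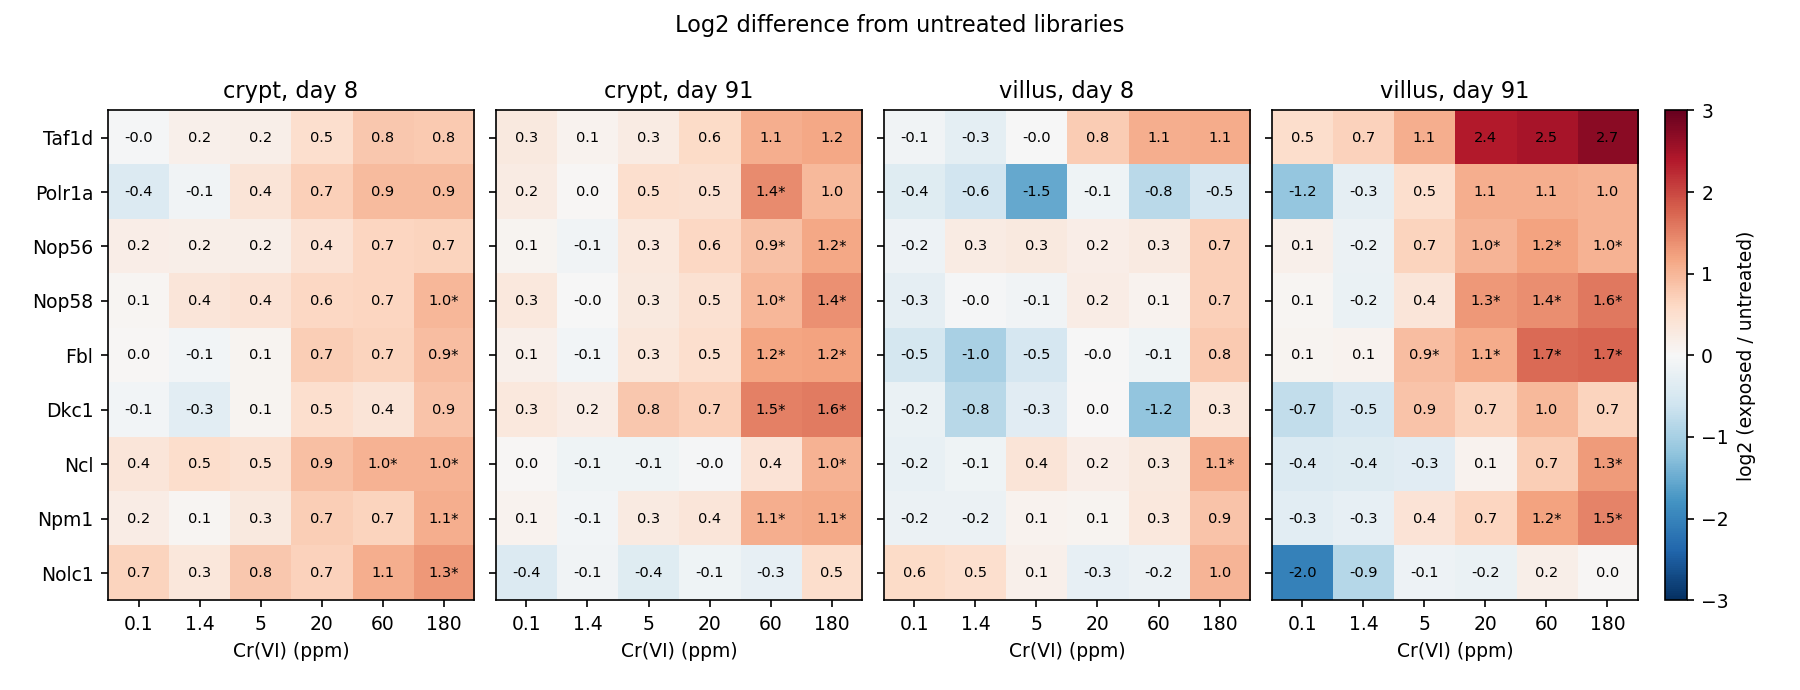
Log2 difference from untreated libraries at each concentration (columns, ppm) for 9 members (rows) in each compartment and day; colour and number give the difference, and an asterisk marks an adjusted p under 0.1 in the fit of all probes, with none given for Taf1d and Polr1b left out for low counts. Asterisks lie at 60 and 180 ppm in the crypt and from 5 ppm upward in the villus of day 91, at 180 ppm in the crypt of day 8 (with Ncl also at 60 ppm), and for Ncl at 180 ppm in the villus of day 8.

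Among the RNA polymerase I subunits, Polr1a, the largest and catalytic one, rose in the crypt at day 91 and 60 ppm, from 23.4 ± 4.7 to 62.6 ± 20.7 CPM (log2 difference 1.42, SE 0.44, adjusted p = 0.0182, edgeR). All 5 exposed libraries lay above all untreated ones there, but the call was lost with DESeq2 and with the estimateDisp dispersion. At 180 ppm its level was 46.2 ± 14.3 CPM with a log2 difference of 0.98 (SE 0.44) that did not pass. In villi it was low, 8.06 ± 9.91 CPM untreated and 17.7 ± 7.95 CPM at 180 ppm at day 91, and 9 libraries in all had no read. Polr1b, the second largest subunit, was near the limit of detection, with 0 reads in 63 libraries and at most 52 reads in any, so no difference is given for it. In the villus it had no read in any library of 7 of the 14 groups, and a count of 0 allows up to 3 reads in a library.

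Transcripts of the box C/D particle proteins Nop58, Fbl, and Nop56 rose in both compartments at day 91. Nop58, a core protein of these particles, stood at 68.8, 81.3, 84.6, 92.0, and 92.7 CPM in untreated crypts and at 173, 204.5, 213, 239, and 260.1 CPM at 180 ppm. The groups did not overlap, and the log2 difference was 1.38 (SE 0.27, adjusted p = 0.000251, edgeR). In villi Nop58 stood at 14.9, 24.3, 40.2, and 46.9 CPM untreated and at 72.5, 82.6, 96.4, 109.4, and 110.0 CPM at 180 ppm, again without overlap (log2 difference 1.59, SE 0.33, adjusted p = 0.000209, edgeR). A second Nop58 probe gave 1.28 (SE 0.34) in the crypt and 1.68 (SE 0.42) in the villus, and the weaker probe 79306 gave 0.52 (SE 0.41) and 0.33 (SE 0.54).

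Fbl, fibrillarin, the methyltransferase of these particles, rose in the crypt at day 91 from 463 ± 102 to 1063 ± 180 CPM (log2 difference 1.20, SE 0.31, adjusted p = 0.00791, edgeR), with the groups apart. In the villus it rose from 101 ± 100.1 CPM (n = 4) to 341 ± 80.8 CPM (log2 difference 1.74, SE 0.35, adjusted p = 0.000121, edgeR). The untreated villi varied widely, at 10.02, 54.4, 98.2, and 241 CPM, and 4 of 5 exposed villi lay above all of them. Nop56, the partner of Nop58, rose from 107 ± 26.2 to 239.5 ± 65.8 CPM in the crypt (log2 difference 1.17, SE 0.30, adjusted p = 0.00706, edgeR). In the villus it rose from 30.8 ± 16.3 to 64.6 ± 2.9 CPM (log2 difference 1.05, SE 0.37, adjusted p = 0.0496, edgeR). In the crypt 4 of 5 exposed libraries exceeded all untreated ones, and in the villus all 5 did.

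Dkc1, dyskerin, the pseudouridine synthase of box H/ACA particles, rose in the crypt at day 91, where the untreated libraries had 25.2, 30.6, 33.7, 35.8, and 37.8 CPM and those at 180 ppm 57.9, 88.0, 100.1, 108, and 126 CPM. The groups did not overlap (log2 difference 1.56, SE 0.40, adjusted p = 0.00792, edgeR). Its 2 weaker probes, with 2166 and 548 counts in all libraries, gave 0.13 (SE 0.56) and −0.01 (SE 0.88). Dkc1 in the villus at day 91 stood at 11 ± 13.6 CPM untreated and 17.9 ± 9.4 CPM at 180 ppm, a log2 difference of 0.66 (SE 0.59) that did not pass.

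Ncl, nucleolin, an abundant protein of the nucleolus that binds the ribosomal RNA precursor, rose at 180 ppm in all 4 sets in the full fit, the call in the crypt at day 8 being lost without the crypt of mouse 49 and the villus of mouse 48. Its level in the crypt at day 91 was 178 ± 20.5 and 366 ± 54.4 CPM (log2 difference 1.04, SE 0.30, adjusted p = 0.0204, edgeR), without overlap. The villus at day 91 had 62.6 ± 30.2 and 153 ± 26.0 CPM (1.28, SE 0.34, adjusted p = 0.00583), also without overlap. Its lower-count probe 73381 gave smaller differences that did not pass, 0.66 (SE 0.32) and 0.54 (SE 0.41).

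Npm1, nucleophosmin, a chaperone of ribosomal proteins and histones, rose in the crypt at day 91 from 199 ± 33.4 to 438 ± 68.2 CPM (log2 difference 1.14, SE 0.31, adjusted p = 0.0154, edgeR) and in the villus from 59.8 ± 45.2 to 171 ± 27.0 CPM (1.48, SE 0.37, adjusted p = 0.00211), with no overlap in either. Nolc1, a chaperone of snoRNA particles that moves between the nucleolus and Cajal bodies, had at day 91 24.9 ± 14.6 and 35.9 ± 12.1 CPM in the crypt (0.52, SE 0.39) and 11.3 ± 6.3 and 11.3 ± 6.7 CPM in the villus (0.04, SE 0.57). Neither passed, and whether Nolc1 differed from another member was not tested. At day 8 in the crypt its libraries at 180 ppm, 27.3 to 56.8 CPM, lay above the untreated ones, 7.31 to 23.4 CPM, and without the crypt of mouse 49 and the villus of mouse 48 its log2 difference was 1.17 (SE 0.44) and did not pass (adjusted p = 0.215, edgeR).

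**Figure D3:**
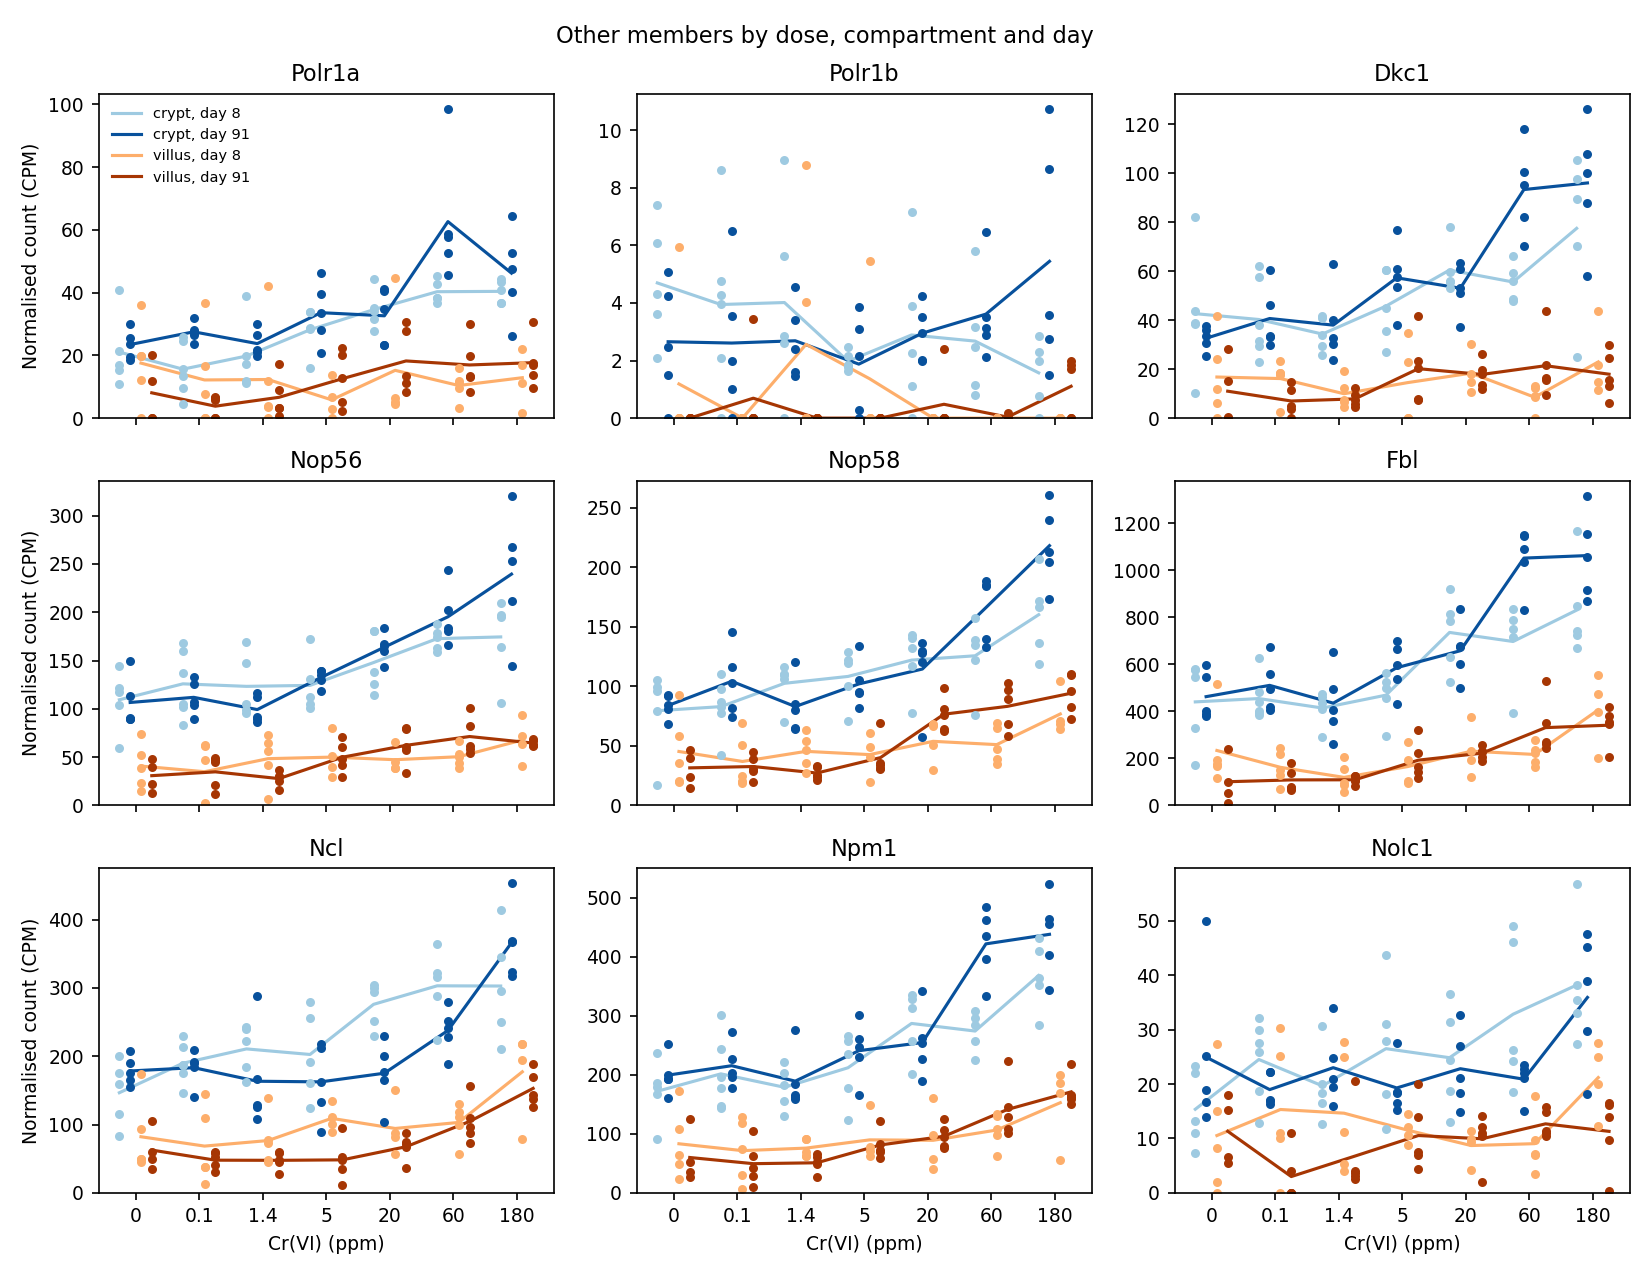
Level (CPM) of the 9 other members in each library against concentration (ppm, equally spaced steps); points are libraries, lines join group means, and colours give compartment and day, with a separate scale for each gene. For Nop56, Nop58, Fbl, Ncl, and Npm1 the crypt means lie above the villus means at every concentration and the day 91 means are highest at 60 or 180 ppm.

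No difference between compartments or days in the effect of 180 ppm passed for any of the 9 genes in the edgeR fit. At an unadjusted p under 0.05 the counts were 0 of 9 between compartments at day 8, 0 at day 91, 1 between days in the crypt, and 2 in the villus, and in DESeq2 none passed but 1 between days in the villus, Polr1b. The shares of all probes that passed higher were 0.00379%, 0.205%, 0.0986%, and 0.842%. For Nop58 the effect was 0.21 (SE 0.43) log2 units larger in the villus than in the crypt at day 91, for Fbl 0.54 (SE 0.46), and for Npm1 0.35 (SE 0.47), beside the all-probe median of 0.22.

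In untreated mice all 10 members had the higher fitted level in the crypt at both days. At day 91, 7 of 10 passed, Taf1d, Nop56, Nop58, Fbl, Dkc1, Ncl, and Npm1, with log2 differences from 1.18 for Taf1d to 2.18 (SE 0.36) for Fbl, beside 6.98% of all probes and an all-probe median of 0.20. Taf1d is counted here as a description, since its value rests on the same untreated villi as its exposure values. Like the other calls, it is not independent of the choice of the members. A fit with mouse as block added Polr1a, giving 8. At day 8 only Nop56 passed (1.40, SE 0.32, adjusted p = 0.0225, edgeR), beside 0.216% of all probes, while the block gave 6, and 8 passed without the crypt of mouse 49 and the villus of mouse 48. At 180 ppm and day 91 the crypt still had the higher level in the other 9, from 1.21 (SE 0.27) for Nop58 to 2.43 (SE 0.43) for Dkc1 among the 8 that passed, beside 5.09% of all probes. The count at 180 ppm and day 8 was 6 of 10, beside 4.28%, and 7 of 10 without these libraries, beside 5.04%.

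**Figure D4:**
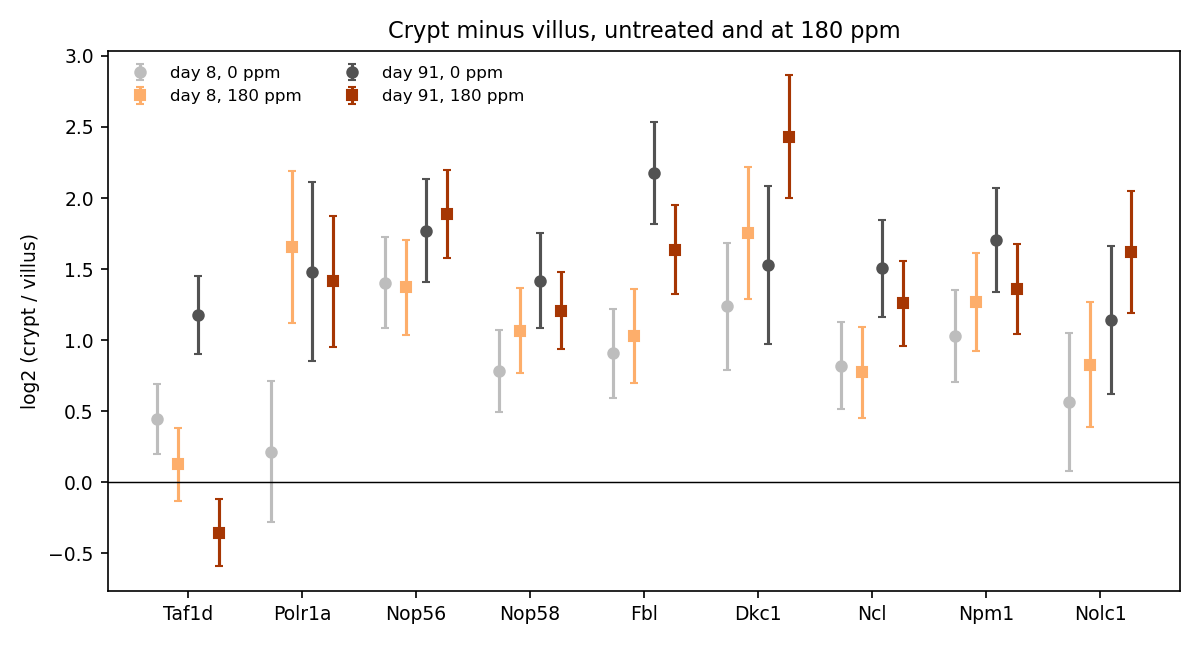
Log2 difference between crypt and villus for 9 members; points are estimates of the edgeR fit and bars 1 SE, circles are untreated and squares 180 ppm, and colours give the day. At day 91 the value of Taf1d lies at 1.18 untreated and −0.35 at 180 ppm, while the others stay above 1 at both.

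Over the 28 group means of log2 CPM, the members other than Taf1d, Polr1b, and Nolc1 varied together, with Pearson r from 0.828 (Dkc1 and Ncl) to 0.970 (Nop56 and Npm1). Taf1d was less like them, from 0.257 with Polr1b and 0.427 with Nolc1 to 0.765 with Nop58. The groups share mice, libraries, and depth, and the compartments account for part of each value, so these are descriptions. Among 5722 genes with a mean of at least 20 CPM, those most like Taf1d were Mrps6 (r = 0.936), Phf5a (0.924), Golm1 (0.923), Ahctf1 (0.922), and Srebf2 (0.919). Those most like the mean of the other 9 were Mybbp1a (0.981), Hdgf (0.981), Atic (0.979), Snrpg (0.977), and Pum3 (0.972).

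Of the related genes outside the members, 125 in 6 lists were tested. At 180 ppm and day 91, 32 were higher and 1 lower in the crypt (median log2 difference 0.65, beside 3.8% of all probes higher and an all-probe median of 0.00) and 38 higher and 3 lower in the villus (0.93, beside 8.9% and 0.11). At day 8, 9 were higher and 3 lower in the crypt (0.58, beside 1.05% and −0.04) and 9 and 3 in the villus (0.40, beside 2.5% and −0.10). Without the crypt of mouse 49 and the villus of mouse 48 the day 8 counts were 6 and 3 in the crypt (0.51, beside 0.445% of all probes higher) and 18 and 3 in the villus (0.55, beside 3.59%). The genes of large ribosomal subunit processing gave 13 of 48 higher in the crypt and 14 in the villus at day 91, those of small subunit processing 9 of 35 in each, and snoRNA particle proteins and assembly factors 4 and 5 of 12, with none lower. The other RNA polymerase I subunits and factors gave 2 of 14 in the crypt (median 0.40) and 4 in the villus (0.39), and a list of 8 snoRNA host genes 4 (0.53) and 6 (1.22), none lower. The Myc network, Myc with its partners and antagonists (8 of 10 genes tested), held all the lower calls at 180 ppm. At day 91 it had 0 of 8 higher and 1 lower in the crypt (median −0.51) and 0 higher and 3 lower in the villus (−0.63). At day 8 it had 3 lower in each compartment, with and without these libraries. At 60 ppm in the villus of day 91 its median was 0.55 beside the all-probe median of 0.23, with 0 higher and 3 lower. The value of Myc itself is not given here.

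The genes of these lists with the smallest adjusted p belonged to each step. Those in the crypt at day 91 were Ddx21, a nucleolar RNA helicase (37.5 ± 13.9 to 163 ± 59.1 CPM, log2 difference 2.12, SE 0.36, adjusted p = 1.05e-05), and the snoRNA host genes Hspa8, a heat shock protein (1.39, SE 0.24), and Cct6a, a chaperonin subunit (1.11, SE 0.21). Those in the villus at day 91 were Polr1c, a subunit shared by RNA polymerases I and III (24.2 ± 6.7 to 77.2 ± 8.3 CPM, 1.68, SE 0.28, adjusted p = 1.96e-06), Hspa8 (1.57, SE 0.26), and Wdr3, of small subunit processing (2.19, SE 0.37). Those in the villus at day 8 were Polr1d, another shared subunit (38.1 ± 6.5 to 109.5 ± 11.9 CPM, 1.51, SE 0.28), Max, and Nufip1, a snoRNA particle assembly factor (2.22, SE 0.49). Those in the crypt at day 8 were of the Myc network and fell: Max, the partner of Myc (124 ± 50.4 to 45.1 ± 4.8 CPM, log2 difference −1.45, SE 0.24), Mxi1 (−1.36, SE 0.27), and Mxd1 (−1.63, SE 0.35), the latter both being Max-binding repressors. Max also fell in the villus at day 8 (−1.36, SE 0.26). All of these passed in edgeR's test, and those of day 8 also did without the crypt of mouse 49 and the villus of mouse 48, with log2 differences of −1.13 for Max, −0.99 for Mxi1, and −1.27 for Mxd1 in the crypt and 1.52 for Polr1d, −1.53 for Max, and 2.60 for Nufip1 in the villus.

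Genes that hold snoRNA genes in the annotation, apart from the members, are given here by their counts. The list was drawn up after the values of the members had been seen. Of 64 genes holding at least 2, 28 (43.8%) were higher and none lower in the villus at day 91, where 8.9% of all probes were higher, and their median log2 difference was 1.02 beside 0.11. In the crypt at day 91 17 (26.6%) were higher and 1 lower beside 3.8%, in the villus at day 8 16 (25.0%) and none lower beside 2.5%, and in the crypt at day 8 7 (10.9%) and none lower beside 1.05%. Of 253 genes holding at least 1, the shares higher were 28.5%, 15.8%, 11.5%, and 4.35%. Without the 2 untreated libraries the day 8 shares were 32.8% in the villus and 7.81% in the crypt for at least 2 snoRNA genes and 17.8% and 2.37% for at least 1, beside 3.59% and 0.445% of all probes. No test was made of this list, and its genes were not matched to the other probes for level.

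**Figure D5:**
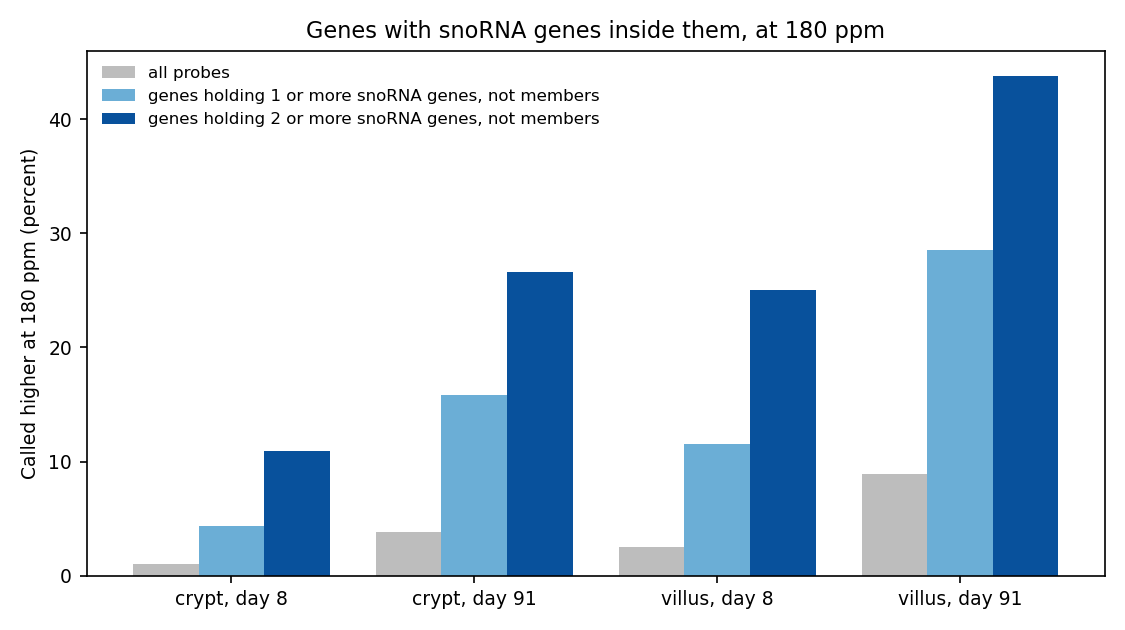
Percent of genes higher at 180 ppm (adjusted p under 0.1, edgeR) in each compartment and day, for all 26365 probes (grey), 253 genes that hold 1 or more snoRNA genes (light blue), and 64 that hold at least 2 (dark blue), members left out; bars start at 0. In the villus of day 91 the bars stand at 8.9%, 28.5%, and 43.8%.

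Several marker lists of cell types also held genes that passed at 180 ppm. Of all 26365 probes, 1002 were higher and 708 lower in the crypt at day 91, and 2346 (8.9%) and 1305 in the villus. At day 8 these were 278 and 811 in the crypt and 660 and 913 in the villus. Without the 2 untreated libraries they were 117 and 447, and 943 and 993, of 26265. A single higher call in a list of 8 or 14 in the villus at day 91 is near the share of all probes. At day 91 6 of 13 enterocyte genes fell in the crypt and 7 in the villus, and at day 8 8 and 7, with and without the 2 untreated libraries. Their summed level at day 91 was 23900 to 49230 CPM in untreated crypts and 13370 to 36520 CPM at 180 ppm, and 62430 to 87430 CPM and 30740 to 95190 CPM in villi. Of 14 proliferation genes 3 rose in the crypt and 1 in the villus, and their sum went from 728 to 1306 CPM to 1342 to 2284 CPM in crypts, without overlap, and from 198 to 600.2 CPM to 296 to 515 CPM in villi, with overlap. At day 8 no proliferation gene passed at 180 ppm in either compartment, and 2 rose in the villus without these libraries. Their day 8 sum in crypts was 440 to 1203 CPM untreated and 1304 to 2071 CPM at 180 ppm, without overlap. In villi it was 239 to 1031 CPM and 472 to 624 CPM, with overlap. By gene the median log2 difference was 0.83 in the crypt and 0.08 in the villus. The day 8 trend passed in 8 of 14 in the crypt, all higher (3.69% of all probes), and in 2 in the villus, both lower. In crypts at 180 ppm, the enterocyte genes Sis and Lct were at 0 in all libraries of day 91, and Sis and Ada in all of day 8. Sis was also at 0 in all villi of day 8, both untreated and at 180 ppm. The sum of 8 crypt stem cell genes in villi at day 91 was 74.7 to 503 CPM untreated and 139 to 272 CPM at 180 ppm. By gene their median log2 difference was 1.15 (1 higher, 0 lower) beside the all-probe median of 0.11. In the crypt at day 91 it was −0.06, with none passing. Of 6 goblet cell genes 3 rose in the crypt and 2 in the villus at day 91, of 6 macrophage genes 0 and 3 (median 1.03 in the villus), and of 8 enteroendocrine and tuft cell genes 2 fell in the crypt and 1 rose and 1 fell in the villus. Of 8 stromal and muscle genes 2 fell in the crypt, and 2 rose and 3 fell in the villus, and of 8 lymphoid and plasma cell genes 2 fell in the crypt, and 1 rose and 3 fell in the villus. Of 7 Paneth cell genes 0 and 1 fell at day 91 and 0 and 3 at day 8, or 0 and 1 at day 8 without the 2 untreated libraries. Of the lymphoid genes 3 fell in each compartment at day 8, or 1 in the crypt and 3 in the villus without these libraries. In the other lists of intestinal cells at day 8, the genes that passed were 1 goblet cell gene higher and 2 lower, 2 enteroendocrine and tuft cell genes lower, and 1 macrophage gene lower in the crypt, and 1 goblet and 1 stem cell gene higher and 1 enteroendocrine and tuft cell gene and 2 stromal genes lower in the villus. Without these libraries, 1 goblet cell gene higher and 1 lower were left in the crypt, and 1 goblet cell gene higher and 1 enteroendocrine and tuft cell gene lower in the villus. Pancreatic acinar genes, of tissue next to the duodenum, ranged from 26.8 to 42990 CPM in the untreated villi and from 46.5 to 65220 CPM at 180 ppm, and none of 11 passed in any set. Of 2 Brunner gland genes 1 fell in the villus at both days. Their untreated sums there were near 0 at the median, with 0 to 161 CPM (median 2.16) at day 8 and 0 to 69.1 CPM (median 0) at day 91. The part of these markers in the values of the members was not tested.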

How the data were processed

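Deposited TempO-Seq read counts per probe were used as the authors left them, not normalized. The submitters' processing notes name bcl2fastq 2.17.1.14 and Bowtie, and what the reads were aligned to and the genome build are not given in the sources used here. The members and gene lists were chosen with earlier results of these data known. Named genes were the 10 members, the 3 genes of 6 pathway lists with the smallest adjusted p at 180 ppm in each set, and the 5 genes most like Taf1d or the other members. Groups came from the labels. All 137 libraries entered 1 fit of 28 groups in edgeR 4.0.16 (R 4.3.3) with TMM factors, filterByExpr, and the quasi-likelihood test, adjusted by Benjamini-Hochberg over 26365 probes per contrast. The SE is the size of the fitted log2 difference divided by the square root of F. The trend used the 7 concentrations as equal steps. CPM was computed from the deposited counts. The steps were tested on simulated data. DESeq2 1.42.0 served as an alternative. Crypt and villus libraries of a mouse share its number. Over 9034 probes the median correlation of their deviations from group means was 0.18 for 66 same-mouse pairs and −0.04 for 269 other pairs, so mouse was used as a block in an alternative fit. Sequences and snoRNA positions are from GENCODE M21 (GRCm38). Total counts of 1463938 to 7199801 per library limit the precision of low probes.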

Additional observations from a re-analysis of the deposited data

Results flagged for a closer look

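Of 80 sets of 4 or 5 libraries examined (the members untreated and at 180 ppm), 8 held a library far from the rest by Dixon's criterion. The criterion flags about 1 in 20 of independent normal samples. These sets share libraries across genes that vary together, so their number cannot be set against that rate. In untreated mice of day 8, Nop58 was at 17.29 CPM in the crypt of mouse 49 and 79.1 to 105.5 CPM in the other crypts, and Polr1b was at 5.935 CPM in the villus of mouse 48 and at 0 in the others. These are the libraries whose compartment markers went against their labels. For Polr1b any single library with reads would be flagged, since the others were at 0. At 180 ppm and day 8, mouse 526 had the lowest Ncl (78.3 CPM, others 195.2 to 218 CPM) and Npm1 (56.35 CPM, others 168.5 to 199.8 CPM) in the villus and the lowest Dkc1 in the crypt (24.82 CPM, others 70.18 to 105.6 CPM). At 180 ppm and day 91, the villus of mouse 488 had the lowest Fbl (206.3 CPM, others 347.2 to 420.2 CPM) and Nolc1 (0.3296 CPM, others 9.677 to 16.53 CPM), and the villus of mouse 485 the highest Npm1 (218.1 CPM, others 149.9 to 165.4 CPM).

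The effect of 180 ppm on Taf1d differed between groups: by 1.53 log2 units between villus and crypt at day 91 and by 1.59 between day 91 and day 8 in the villus. Both values share the untreated villi of day 91, and Taf1d named the group of genes, so they are descriptions. Without the villus of mouse 48 and the crypt of mouse 49 they were 1.47 and 1.23.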

How the results depend on the processing

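Of 284 counts of calls recomputed under the alternatives, 245 stayed within 1.5 times the main count. These include the differences between compartments or days in the effect of 180 ppm, whose main count was 0, so no call could be lost there. In the crypt at day 8 (6 of 54 tests) the estimateDisp dispersion gave 3, and leaving out the villus of mouse 48 and the crypt of mouse 49 gave 0. In the villus at day 8 (1 of 54) separate fits gave 0, the estimateDisp dispersion 2 (1 higher, 1 lower), summed probes and the log10 total count as a covariate 2 (both higher), DESeq2 3 (1 higher, 2 lower), a mean count of at least 10 and thinning 3 each (2 higher, 1 lower), leaving out mouse 526 3 (all higher), and leaving out the 2 untreated libraries 5 (all higher). In the villus at day 91 (13 of 54) DESeq2 size factors gave 7 and the log10 total 6. With DESeq2 size factors the split of all probes at 180 ppm there was 1410 higher and 2049 lower, against 2346 and 1305. The trend count in the crypt at day 8 was 4 with estimateDisp (main 8), and in the villus at day 8 it was 2 with separate fits (main 4). Between untreated compartments at day 8 (main 1) the count was 0 with estimateDisp or separate fits, 2 with a mean count of at least 10, 5 with DESeq2, 6 with mouse as a replicate block, and 8 without the 2 libraries. The day difference in the villus (main 0) was 1 with DESeq2 and estimateDisp. The block moved no other count by over 1.5 times.

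Leaving out each replicate in turn gave 0 to 6 for exposure in the crypt at day 8, 0 to 3 in the villus at day 8 (1 of them lower without replicate 2 and without replicate 5), 6 to 18 in the villus at day 91, 1 to 5 for the trend in the villus at day 8, 5 to 8 at day 91, 0 to 6 for the untreated compartments at day 8, and 0 to 1 for the day difference in the villus.

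At 180 ppm, with a further probe alone, 12 log2 differences stayed the same, 1 was stronger, 23 were weaker, and 8 turned sign. At day 8 Polr1a 66274 turned in the crypt (−1.37). In the villus of day 8, Nop56 31376 (−0.55), Nop56 77900 (−0.34), Nop58 79306 (−0.89), and Dkc1 65032 (−0.52) turned. At day 91 Fbl 29301 (−0.38) and Dkc1 31185 (−0.011) turned in the crypt and Dkc1 65032 (−0.11) in the villus. Each of these probes had a lower total count than the probe used for its gene. The highest total among them was 9812 for Nop58 79306, beside 9924 for the probe used for Nolc1. Leaving out a replicate gave Dkc1 in the villus −0.47 to 0.995 at day 8 and −0.072 to 2.04 at day 91, negative in 1 case each. For Nolc1 in the villus at day 91, whose main value was 0.04, it was −0.29 with DESeq2, −0.24 with its size factors, −0.044 with a mean count of at least 10, -0.0073 with summed probes, -0.008 with separate fits, −0.22 with the log10 total, −0.030 without the 2 libraries, −0.013 without mouse 526, and −0.25 to 0.60 leaving out each replicate in turn. The alternatives without mouse 526 and mouse 488 were chosen after seeing the data. The cause of each change was not tested. Polr1b had no read in 63 libraries and Polr1a in 9, so small differences were not detectable there.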
